A study of Mus musculus with 6 samples.

Results

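Serine proteases made in the testis were examined at postnatal day 21 in whole mouse testis, comparing Nxf2 knockout (KO) with wild type (WT) testes. The family was taken as 10 genes, Prss21, Prss39, Prss40, Prss42, Prss43, Prss44, Prss46, Prss50, Prss54 and Prss55, and its members were found as the probe sets whose single gene symbol is 1 of these names. Of the 45101 probe sets on the array, 12 met that rule, and they represent 9 of the 10 genes, since no probe set named Prss43 was analysed here. Prss44 has 4 probe sets and each other gene has 1. The 10 genes were proposed with earlier results of this KO against WT comparison in view, so their differences are given as a description and support nothing by themselves.

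The 6 samples are 3 Nxf2 KO and 3 WT testis samples of 21 days, each on 1 Affymetrix array. The submitters reported similar testis weights in both genotypes at this age and spoke of 3 pairs of testes. Strain, KO allele, whether the deletion reaches every cell, and how many animals gave a sample are not stated there, so the spread between arrays may be partly technical. Values are MAS5 signals, the brightness of a probe set on a linear scale after each array was brought to a common level. Signals of different probe sets are not compared with each other, because each set of probes binds with its own strength.

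Trypsin-like serine proteases cut proteins with a catalytic triad of histidine, aspartate and serine, and most are made as inactive precursors. In the male germ line they are found in the acrosome, the vesicle that opens when sperm meet the egg coat, and on the surface of germ cells and sperm, often held by a glycolipid (GPI) anchor. Several of the family lie side by side in the genome. At postnatal day 21 the first wave of spermatogenesis has produced spermatocytes and the first round spermatids.

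In the RefSeq table of assembly GRCm38.p6, Prss42, Prss44, Prss43, Prss45, Prss46 and Prss50 follow each other on chromosome 9 with no other protein-coding gene between them. Prss39 and Prss40 lie on chromosome 1 with only Cfc1 between them, Prss21 on chromosome 17, Prss54 on chromosome 8 and Prss55 on chromosome 14. RefSeq promoter windows (GRCm38.p6, 250 bases before to 50 after the annotated start) were found for 7 of the 10 genes. The windows of Prss39 (chr1:34498162-34498461, plus strand) and Prss40 (chr1:34560894-34561193, minus strand) are shown because both genes fell in KO. Capitals mark the 5 runs of at least 10 bases that are identical in an alignment of both.
Prss39: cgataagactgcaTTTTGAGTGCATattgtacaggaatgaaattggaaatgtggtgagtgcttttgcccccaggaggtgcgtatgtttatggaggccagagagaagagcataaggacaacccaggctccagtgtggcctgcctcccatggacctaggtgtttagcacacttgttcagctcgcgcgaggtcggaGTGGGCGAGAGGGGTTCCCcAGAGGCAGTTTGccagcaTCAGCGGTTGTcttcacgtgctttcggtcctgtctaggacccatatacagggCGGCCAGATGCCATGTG
Prss40: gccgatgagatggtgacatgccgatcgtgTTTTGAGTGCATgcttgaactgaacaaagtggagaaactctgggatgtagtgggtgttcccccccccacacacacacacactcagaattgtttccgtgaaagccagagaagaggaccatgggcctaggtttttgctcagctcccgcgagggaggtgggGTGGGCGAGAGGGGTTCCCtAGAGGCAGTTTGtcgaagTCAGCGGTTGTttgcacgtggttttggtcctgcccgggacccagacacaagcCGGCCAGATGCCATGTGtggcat
Identity was 79.1% over the 253 aligned columns that hold no gap, beside 94 gap positions, and the longest exact run was 19 bases. In the other 20 pairs of member promoters identity did not exceed 70.6% and no exact run exceeded 11 bases. Those pairs include the windows of Prss21, Prss46 and Prss54, which also fell. Whether shared sequence goes with the fall was not tested. The last 2 runs before the start hold CAGTT and CGGTT, which are matches on the opposite strand to AACNG, the core letters of the MYB motif.

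The windows of the chromosome 9 neighbours Prss46 (chr9:110844256-110844555, plus strand) and Prss50 (chr9:110857714-110858013, plus strand) are shown because their differences between the genotypes were far apart in size. Capitals mark AACNG on either strand.
Prss46: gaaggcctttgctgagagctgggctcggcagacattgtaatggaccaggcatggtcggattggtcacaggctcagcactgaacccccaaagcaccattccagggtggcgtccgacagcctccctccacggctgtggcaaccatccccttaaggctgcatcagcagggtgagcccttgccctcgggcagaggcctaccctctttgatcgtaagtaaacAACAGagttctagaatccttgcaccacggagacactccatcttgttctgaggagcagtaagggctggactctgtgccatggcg
Prss50: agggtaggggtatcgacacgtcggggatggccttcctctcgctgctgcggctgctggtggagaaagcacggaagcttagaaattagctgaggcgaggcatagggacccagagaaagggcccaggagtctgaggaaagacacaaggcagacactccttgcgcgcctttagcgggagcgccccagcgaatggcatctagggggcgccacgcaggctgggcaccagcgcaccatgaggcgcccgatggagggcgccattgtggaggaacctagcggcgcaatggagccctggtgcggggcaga
AACNG was found, on either strand, in 6 of the 7 member genes and in 80.3% of all 32851 RefSeq windows of the same length. GTTGCC, the letters of 1 arm of the X-box motif of RFX factors, were found in 2 of the 7 (Prss46 and Prss21) and in 12.5% of all windows. TGACGTCA, the motif of CREM and its relatives, was in none of the 7 and in 1.79% of all windows. The shorter TGACG, which lies inside it, was in none of the 7 and in 20.8% of all, and TATAAA was in none of the 7 and in 13.6% of all. These matches describe letters in these windows.

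The targeted gene was measured first. The Nxf2 probe set read 374.3, 340.4 and 385.9 in WT replicates 1 to 3 and 116.0, 106.2 and 130.8 in KO replicates 1 to 3. Every KO array lay far below every WT array, with a log2 fold change of -1.59 ± 0.0999 (SE, limma, adjusted p = 0.000488).

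All tested proteases had lower means in KO testes, and Prss46, Prss40, Prss21, Prss39 and the dim Prss54 fell among the 8 tested genes. Of the 12 probe sets 10 were bright enough to be tested, meaning a mean over all 6 arrays of at least 20.5. Log2 fold changes are KO minus WT on the log2(signal + 7) scale, which understates changes of dim probe sets. The 10 tested probe sets ranged from -1.58 to -0.23 with a median of -0.52, beside a median of 0.037 over all 27022 tested probe sets. By limma 5 of the 10 were called lower (adjusted p below 0.05, adjusted over the whole tested table), and none was called higher. Prss54 passed the limit through its WT signal alone and so had to differ. Of the 9 tested probe sets with both group means above the limit 4 were called, and without the limit 4 of all 12 were, with a median of -0.47. Over all tested probe sets 5.23% were called lower and 2.26% higher (1414 and 610, or 1382 and 247 when each array was centred on its median), and since the genes were chosen with this comparison known nothing is read from the member count. The 3 KO arrays lay below the 3 WT arrays in 9 of the 10, as they did in 14.8% of the tested table. The member count was 3 without WT replicate 1, where Prss40 and Prss54 were lost.

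**Figure D1:**
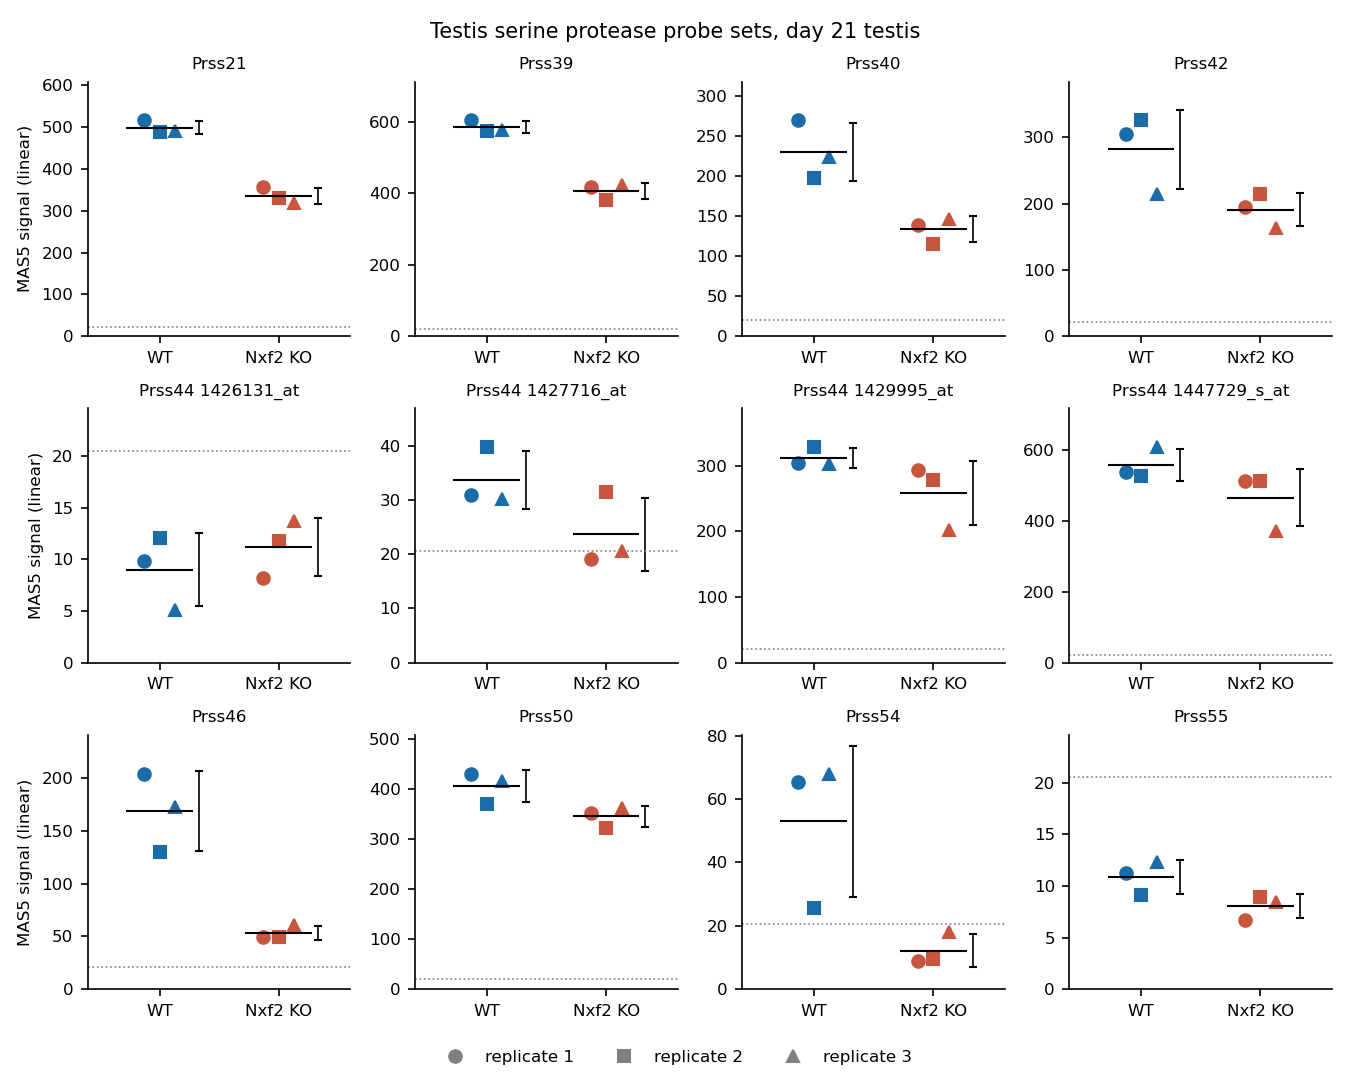
MAS5 signal (linear axis from 0) of the 12 probe sets in 3 WT (blue) and 3 Nxf2 KO (red) testes, with marker shape giving the replicate, a bar at the group mean and an error bar of ± 1 SD beside it. The dotted line is the limit of 20.5, below which both groups of Prss55 and of probe set 1426131_at of Prss44 lie, and the widest relative gap between groups is that of Prss46, from 61.0 to 129.5.

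**Figure D2:**
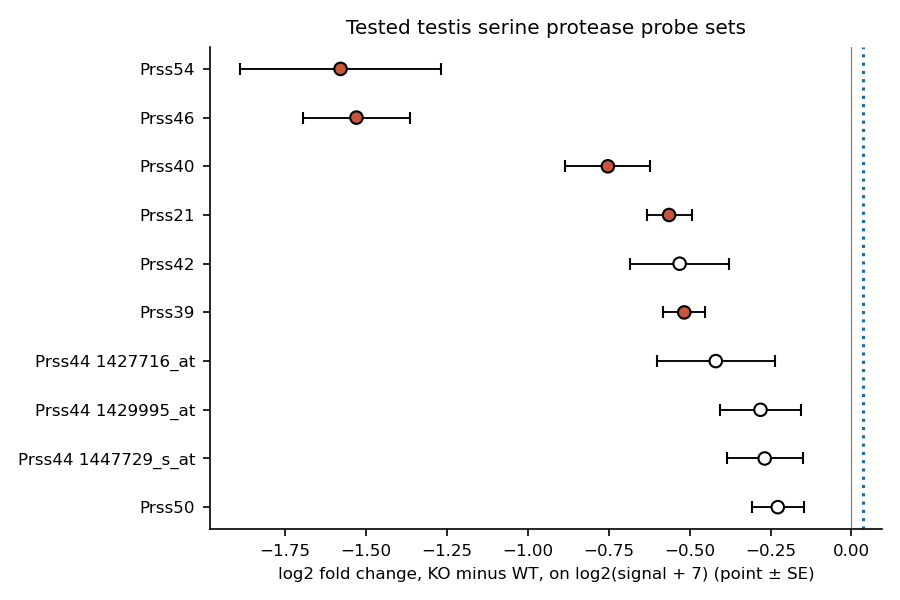
Log2 fold change, KO minus WT, of the 10 tested probe sets with limma's standard error. Filled points were called, open points were not, and the dotted line marks the median of all tested probe sets at 0.037; every point lies to its left, from -1.58 for Prss54 to -0.23 for Prss50.

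The acrosomal proteases Prss39 (TESP1) and Prss40 (TESP2) were both lower in KO. Prss39 read 605.2, 575.6 and 577.8 in the WT arrays and 418.3, 382.5 and 423.0 in the KO arrays. Its groups were tight, with a coefficient of variation of 2.82% in WT and 5.43% in KO, and did not overlap. The mean was 586.2 ± 16.5 in WT and 408.0 ± 22.1 in KO (SD, n = 3 each). The log2 fold change was -0.52 ± 0.0646 (SE), and the KO mean signal was 69.6% of the WT mean. Prss40 read 269.2, 197.2 and 223.4 in WT and 137.9, 115.0 and 146.6 in KO. WT replicate 2 was the lowest WT array and KO replicate 2 the lowest KO array, and the groups did not overlap. From 229.9 ± 36.4 in WT the mean went down to 133.2 ± 16.3 in KO, which is 57.9% of the WT mean. The log2 fold change was -0.75 ± 0.132. Without WT replicate 1 the log2 fold change of Prss40 was -0.64 and its call was lost.

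Prss54 encodes a protease-like protein related to plasma kallikrein. It read 65.4, 25.5 and 68.0 in WT and 8.96, 9.55 and 18.1 in KO. WT replicate 2 stood well below the other WT arrays, and all KO values were under the limit of 20.5. The mean was 53.0 ± 23.8 in WT and 12.2 ± 5.12 in KO, a log2 fold change of -1.58 ± 0.310. With KO signals this dim the size of the difference is poorly set. The estimate ranged from -2.01 to -0.81 over the 14 alternatives that tested it, and the call was lost without KO replicate 2 (-1.49), WT replicate 1 (-1.39) or WT replicate 3 (-1.37).

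The surface proteases gave differing pictures. Prss21 (testisin), a GPI-anchored protease of germ cells and sperm, read 516.6, 487.9 and 491.8 in WT and 358.0, 329.7 and 318.9 in KO. The WT arrays lay within a coefficient of variation of 3.12%, and the lowest of them was 1.36 times the highest KO array. Group means were 498.8 ± 15.6 in WT and 335.5 ± 20.2 in KO. The log2 fold change was -0.56 ± 0.0696, and this call was kept under all 15 alternatives, as were those of Prss39 and Prss46. Prss55, a GPI-anchored protease needed for sperm to enter the oviduct, was dim in every testis. It read 11.3, 9.09 and 12.3 in WT and 6.70, 8.91 and 8.48 in KO. These values lie below the limit of 20.5, so Prss55 was not tested. Its groups did not overlap, although the lowest WT value was only 1.02 times the highest KO value.

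Along the chromosome 9 cluster the differences were uneven. Prss46 read 204.0, 129.5 and 172.2 in WT and 49.2, 49.2 and 61.0 in KO. The lowest WT array was 2.12 times the highest KO array. The mean was 168.6 ± 37.4 in WT and 53.1 ± 6.83 in KO, which is 31.5% of the WT mean. On the log2(signal + 7) scale the log2 fold change was -1.53 ± 0.164 (2.89-fold lower). Its neighbour Prss50 (TSP50), whose product carries threonine in place of the catalytic serine, read 430.9, 370.8 and 416.7 in WT and 351.6, 322.4 and 362.6 in KO. The groups were separate by a narrow margin, the lowest WT array being 1.02 times the highest KO array. Its log2 fold change was -0.23 ± 0.0810, which did not pass, though it was called with array weights and with the replicate number as a block. On the other side of Prss46, Prss45, which was not among the 10 genes, had a log2 fold change of -0.14 ± 0.0956 (limma, adjusted p = 0.350), with 340.1 in WT and 308.6 in KO. Without KO replicate 3 it was -0.046.

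Prss42 (TESSP2), which has been linked to survival of spermatocytes, read 305.2, 325.9 and 214.4 in WT and 195.1, 214.0 and 163.8 in KO. WT replicate 3 lay at the level of the highest KO array, so the groups barely separated. The mean was 281.8 ± 59.3 in WT and 191.0 ± 25.3 in KO, a log2 fold change of -0.53 ± 0.154, which did not pass. It was called without WT replicate 3 (-0.71), with each array centred on its median (-0.58) and with array weights (-0.57). With the replicate number as a block Prss42 was called too.

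Prss44 (TESSP4) did not pass with any of its 3 tested probe sets, and the fourth was too dim to test. Probe set 1429995_at read 303.1, 328.3 and 302.3 in WT and 293.6, 278.1 and 202.3 in KO. KO replicate 3 lay far below the other KO arrays, which were close to WT, and the log2 fold change was -0.28 ± 0.127. Probe set 1447729_s_at read 537.1, 525.9 and 608.2 in WT and 511.8, 512.4 and 372.3 in KO, with a log2 fold change of -0.27 ± 0.117. Here too KO replicate 3 was the low array, and without it the estimates were -0.12 for both probe sets. Probe set 1427716_at read 30.9, 39.9 and 30.3 in WT and 19.1, 31.5 and 20.6 in KO, with overlapping groups and a log2 fold change of -0.42 ± 0.182. Probe set 1426131_at had means of 9.01 ± 3.53 in WT and 11.2 ± 2.81 in KO, below the limit in both. In the array maker's naming a suffix of _s_at marks probes that can match more than 1 transcript, so the signal of 1447729_s_at may not be that of Prss44 alone.

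**Figure D3:**
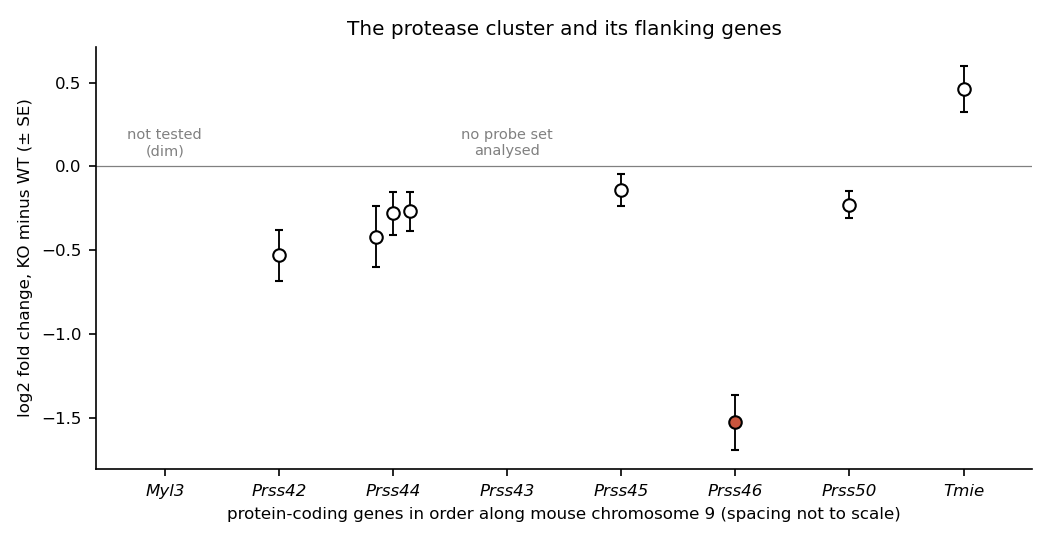
Log2 fold change, KO minus WT, with limma's standard error for the protease genes of chromosome 9 in their order in RefSeq, with the flanking gene Tmie. Myl3, on the other flank, was too dim to test and no probe set of Prss43 was analysed here, so their places hold no point. Prss46, at -1.53, is the only filled (called) point, and its neighbours Prss45 and Prss50 lie at -0.14 and -0.23.

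Genes that flank the proteases were not chosen by their values. Of those with a probe set 5 were bright enough to test (Prss45 among them) and 1 fell. Ccdc113, a gene of ciliary and flagellar assembly next to Prss54, read 799.2, 908.9 and 797.5 in WT and 662.6, 640.9 and 587.4 in KO. No KO array reached a WT array, and the log2 fold change was -0.40 (limma, adjusted p = 0.0114, and 0.0564 without WT replicate 1). Gins3, a DNA replication gene on the other side of Prss54, had a log2 fold change of 0.19 (limma, adjusted p = 0.197). Tmie, a gene of hair cell mechanotransduction at the end of the chromosome 9 cluster, had one of 0.46 (limma, adjusted p = 0.0670, 0.0473 without KO replicate 2 and 0.0174 with array weights), and Ptpn18, a phosphatase gene beside Prss39, one of 0.39 (limma, adjusted p = 0.189). Ptpn18 read 30.8, 34.7 and 36.9 in WT and 38.6, 40.9 and 64.8 in KO, and without KO replicate 3 its log2 fold change was 0.19. Cfc1, between Prss39 and Prss40, was too dim to test, with means of 17.2 in WT and 13.5 in KO.

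Arrays of the same genotype did not all rank alike, and the proteases fell into more than one pattern. Values here are log2(signal + 7) minus the WT mean of the same probe set. WT replicate 2 was the lowest WT array for 7 of the 10 tested probe sets. In that array Prss54 stood at -0.79, Prss46 at -0.34 and Prss40 at -0.20, whereas Prss42 stood at 0.23 and Prss44 1429995_at at 0.076. Among the KO arrays, Prss54 and Prss46 were least reduced in KO replicate 3, at -1.16 and -1.35, while Prss42 and Prss44 1429995_at were most reduced there, at -0.74 and -0.60. Prss40, Prss39 and Prss50 also had WT replicate 2 as their lowest WT array. They too were least reduced in KO replicate 3 (-0.61, -0.46 and -0.16), though KO replicate 1 was close for Prss39 (-0.48). Other probe sets followed neither pattern: Prss21 and Prss44 1447729_s_at were lowest in KO replicate 3 (-0.63 and -0.57) and also slightly low in WT replicate 2 (-0.031 and -0.079), and Prss44 1427716_at was lowest in KO replicate 1 (-0.63). For each gene these are single values per array and carry no test.

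Germ cell stage markers moved in the same samples. The median of the 12 tested elongating spermatid markers was -0.68 in WT replicate 2, against 0.12 and 0.61 in WT replicates 1 and 3, and -1.60, -1.44 and -0.996 in the KO arrays. The median of 17 round spermatid markers was -0.31 in WT replicate 2 and -1.04, -0.82 and -0.69 in the KO arrays. That of 15 pachytene spermatocyte markers was 0.043 in WT replicate 2 and -0.20, -0.26 and -0.41 in the KO arrays. KO replicate 3 was thus the lowest KO array for the pachytene list, as for Prss42, Prss21 and 2 probe sets of Prss44. It was the highest KO array for both spermatid lists, as for Prss54, Prss46, Prss40, Prss39 and Prss50. The WT arrays did not all sort alike. The pachytene list was highest in WT replicate 2, as were Prss42 and a Prss44 probe set (0.23 and 0.076). Prss21 and the other Prss44 probe set (-0.031 and -0.079) were the lowest of WT there. Both spermatid lists were highest in WT replicate 3, as was Prss54 (0.42). Prss46, Prss40, Prss39 and Prss50 were highest in WT replicate 1 (0.29, 0.23, 0.046 and 0.087). Whether the genes follow these lists was not tested. In these whole testes fewer cells of a type and less RNA per cell cannot be told apart.

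**Figure D4:**
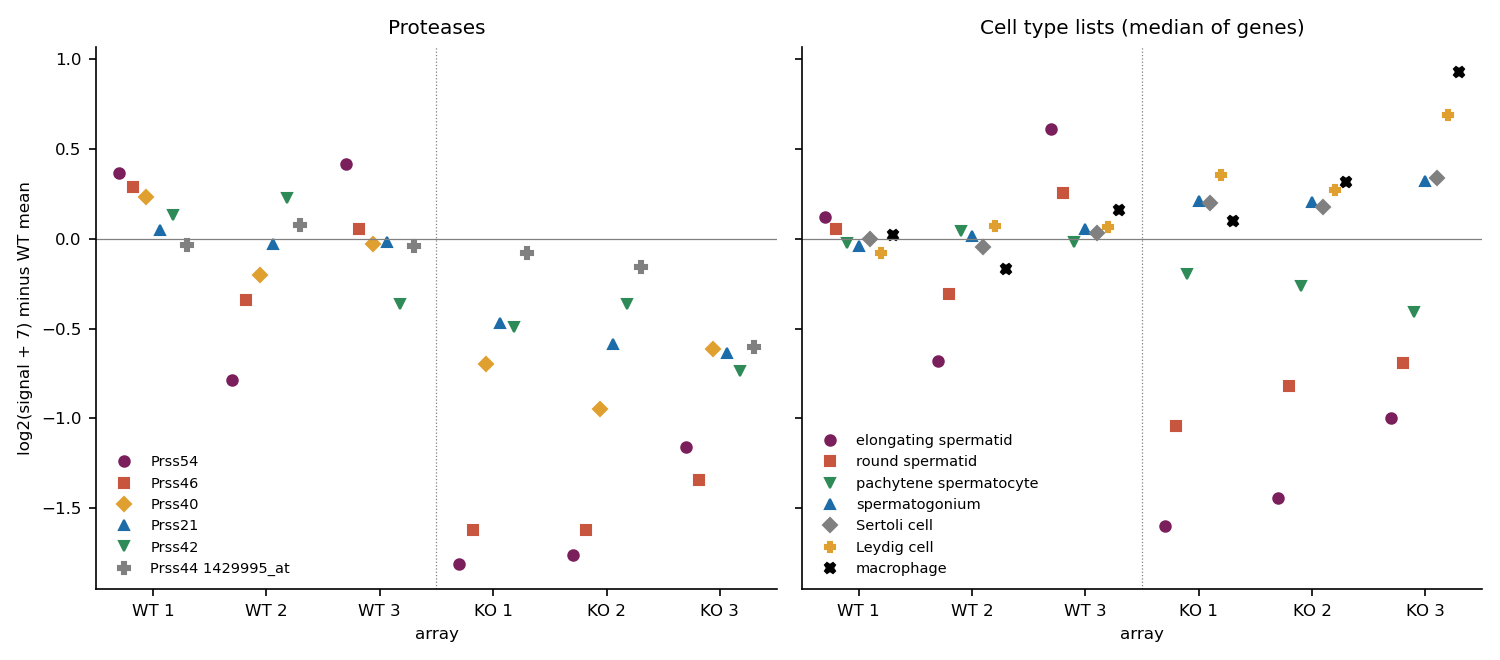
Log2(signal + 7) minus the WT mean in each of the 6 arrays for 6 protease probe sets (left) and for the median of 7 cell type marker lists (right), with symbols shifted sideways for clarity. In WT replicate 2, Prss54 (-0.79) and the elongating spermatid list (-0.68) are low, while Prss42 (0.23) and the pachytene list (0.043) are not.

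Over the whole marker lists, 16 of 17 round spermatid markers fell and none rose, with summed signals of 4826 to 5221 in KO and 6757 to 7180 in WT and a median log2 fold change of -0.88. Of these, 4 (Spaca3, Actl7a, Tssk2 and Catsper3) passed the limit through WT alone and so had to differ, and 12 of the other 13 fell (median -0.69). Without the limit 9 of the 17 were called. Of 12 tested elongating spermatid markers 7 fell and none rose (sums of 1432 to 1463 in KO and 2007 to 2948 in WT, median -1.35), and Prm2, Spem1 and Tssk6 were too dim to test. The log2 fold change was negative in 10 of the 12. It was 0.015 for Tnp2 and 0.029 for Prm1, both dim, and Tnp1 (-0.47) did not pass. The list is named by its markers and does not show that elongating spermatids were present at this age. Here 5 passed through WT alone (Tnp1, Akap4, Capza3, Hils1 and Gapdhs, 3 of them called), 4 of the other 7 fell, and the median was -0.51 over those 7 and also over all 15 without the limit, where 5 were called. Of 15 pachytene markers 6 fell and none rose (10027 to 11579 in KO and 12294 to 12712 in WT, median -0.23). Of 11 tested spermatogonial markers 4 rose and 1 fell (5077 to 5192 in KO and 4580 to 4802 in WT). Of 12 tested Sertoli cell markers 4 rose and none fell (7916 to 8587 in KO and 6929 to 7406 in WT), and of 7 Leydig cell markers 2 rose and none fell (2858 to 4176 in KO and 2375 to 2705 in WT). None of 10 macrophage markers passed by limma (2295 to 3546 in KO and 1587 to 2176 in WT), although 6 had an unadjusted p under 0.05. So had 9 of 15 pachytene, 8 of 11 spermatogonial, 10 of 12 Sertoli and 5 of 7 Leydig cell markers. The share over all probe sets was not counted, so nothing is read from the 6. The macrophage median of 0.48 rested largely on KO replicate 3, without which it was 0.21, the median per KO array being 0.10, 0.32 and 0.93. Of 4 tested epididymal markers 3 fell and 1 rose (627.1 to 767.8 in KO and 826.7 to 865.0 in WT), of which Adam7 passed the limit through WT alone and Defb15 through KO alone. Crisp4, Lcn5, Lcn8 and Lcn9 were too dim to test. Aqp9 alone, with means of 653.2 in WT and 524.1 in KO, made up most of these sums. No marker was at 0 on all arrays. Single arrays moved these counts. Without WT replicate 1 the calls were 2 in the round spermatid, 0 in the elongating spermatid, 1 in the pachytene, 2 in the spermatogonial, 0 in the Sertoli and 0 in the Leydig cell list. Without WT replicate 3 they were 9 in the round spermatid, 2 in the pachytene and 0 in the epididymal list. Without KO replicate 3 they were 0 in the Leydig, 2 in the Sertoli and 0 in the epididymal list, and without KO replicate 1 macrophage markers reached 3. Over all 6 fits with 1 array left out, the Sertoli list had 0 to 2 calls, the Leydig list 0 to 2, the epididymal list 0 to 3 and the spermatogonial list 2 to 4. The part of these shifts in the protease values was not tested.

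Other serine proteases of testis and acrosome showed the same sign in 4 of 5 tested genes, and 1 fell. Acr, which encodes acrosin, the main protease of the acrosome, read 541.9, 555.5 and 513.6 in WT and 443.3, 423.7 and 381.2 in KO. The groups were well apart, with a log2 fold change of -0.36 ± 0.0726 (limma, adjusted p = 0.0192, and 0.0982 without WT replicate 1 and 0.0546 without WT replicate 2). Pcsk4, the proprotein convertase of germ cells, had a log2 fold change of -0.38 ± 0.131 (limma, adjusted p = 0.0973), with 362.8 in WT and 277.6 in KO, and without KO replicate 3 it was -0.24. The median of the 5 was -0.36. Prss28, Prss29, Prss37, Prss51 and Prss52 were too dim to test, and without the limit the median over all 10 was -0.022. That median counts Prss28 and Prss29, which nothing here shows to be genes of testis or acrosome. Their means were 0.364 and 7.81 in WT and 0.558 and 10.2 in KO.

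In a list of serine protease inhibitors with genes of acrosin-binding and acrosomal matrix proteins, 3 of 14 tested genes fell and 1 rose. The median was -0.098 (-0.15 over all 21 without the limit). The 3 that fell were Acrbp, Zpbp and Zpbp2, and no inhibitor gene was called lower. Acrbp, which encodes the proacrosin-binding protein, read 825.1, 841.1 and 797.9 in WT and 713.1, 633.8 and 597.1 in KO. Each KO array was below each WT array, and the log2 fold change was -0.34 ± 0.0681 (limma, adjusted p = 0.0191). Zpbp and Zpbp2, which encode proteins of the acrosomal matrix, fell by 0.41 and 0.34 on the log2 scale (limma, adjusted p = 0.0166 and 0.00879). Serpina5, the protein C inhibitor, which can inhibit acrosin, read 727.5, 675.2 and 831.1 in WT and 917.3, 875.5 and 1011 in KO. It was the gene of this list that rose, by 0.33 (limma, adjusted p = 0.0378). The other tested probe set of Acrbp also fell, and that of Zpbp had the same sign but did not pass. All 4 calls were lost without WT replicate 1 (adjusted p 0.0535 to 0.136). The call of Serpina5 was also lost without KO replicate 1 (0.0667), KO replicate 3 (0.110), or, together with that of Acrbp, KO replicate 2 (0.0503 and 0.0524) or WT replicate 2 (0.0948 and 0.0507), and that of Zpbp without WT replicate 3 (0.0510).

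The list named serine proteases of other tissues had the opposite sign on balance. Its name does not mean that testis lacks them. Furin and Prss35, for example, had WT means of 557.1 and 726.8 here. Of 22 tested genes 3 had negative log2 fold changes, 2 rose and none fell, with a median of 0.25. Over all 38 without the limit the median was 0.17 and none was called by limma. Pcsk5, a proprotein convertase gene, read 76.6, 83.6 and 107.1 in WT and 140.7, 123.6 and 153.6 in KO, a log2 fold change of 0.61 ± 0.140 (limma, adjusted p = 0.0300). Masp1, a protease gene of the lectin pathway of complement, had one of 0.86 ± 0.220 (limma, adjusted p = 0.0432), with 50.6 in WT and 98.7 in KO. Pcsk5 and Masp1 were each read on a probe set with the suffix _s_at, so these signals may not be theirs alone. The other 2 tested probe sets of Pcsk5 rose too, whereas the other 2 of Masp1 had the same sign and did not pass. Both calls were lost without WT replicate 1 (adjusted p 0.130 to 0.145), WT replicate 2 (0.0714 to 0.107), KO replicate 1 (0.0676 to 0.0780) or KO replicate 3 (0.0907 to 0.126). The medians of the macrophage (0.93), Leydig cell (0.69), Sertoli cell (0.34) and spermatogonial (0.32) lists were highest in KO replicate 3, and so were Pcsk5 and Masp1. Their part in these values was not tested.

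The last list holds genes linked to processing of the sperm surface protein ADAM3 or to sperm entry into the oviduct, a process in which Prss55 takes part. Not every gene of the list is itself required. Adam1a, Adam6a, Adam6b and Galntl5 were too dim to test. Of 16 tested genes 6 fell and none rose, with a median of -0.14, and 1 to 4 were called when 1 array was left out. Adam3 and Clgn also stand in the pachytene list and Rnase10 in the epididymal one, as Acr, Zpbp and Zpbp2 do in the round spermatid list. Pdilt, a chaperone gene of spermatids, read 70.2, 40.9 and 99.7 in WT and 11.2, 15.9 and 27.7 in KO. WT replicate 2 was the lowest WT array here too, and the log2 fold change was -1.59 ± 0.299 (limma, adjusted p = 0.0159). Pdilt passed the limit through WT alone (KO mean 18.3) and so had to differ. Adam1b, a fertilin alpha gene, fell from 277.0 to 163.9, by 0.74 on the log2 scale (limma, adjusted p = 0.00499). The other tested probe set of Adam1b fell as well, and that of Pdilt had the same sign but did not pass. Adam3 itself fell by 0.32 and Adam2 by 0.29 on the log2 scale (limma, adjusted p = 0.0248 and 0.0358). Without WT replicate 1 the calls of Pdilt, Adam3 and Adam2 were lost (adjusted p 0.0769 to 0.120), without WT replicate 2 or 3 those of Adam3 and Adam2 (0.0568 to 0.0934), and without KO replicate 2 or 3 that of Adam2 (0.0686 and 0.0667).

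**Figure D5:**
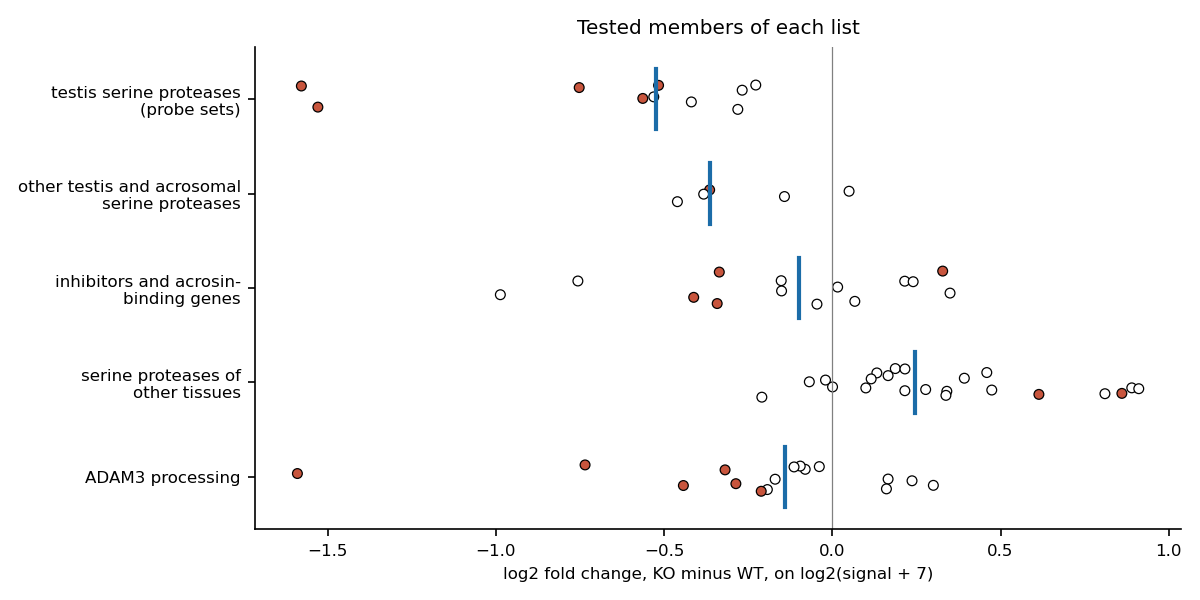
Log2 fold change, KO minus WT, of the tested testis serine protease probe sets and of the tested genes of 4 lists (1 probe set per gene, vertical scatter without meaning), filled where called, with the median as a vertical bar. The medians run from -0.52 in the proteases to 0.25 in serine proteases of other tissues.

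The genes whose values followed those of the proteases most closely were found by Pearson correlation with the mean of the 8 tested genes, each at its brightest probe set, over the 6 arrays. The closest were Cux1 (r = 0.998), Dgkeos (0.998), Ankrd45 (0.997), Ubtd1 (0.996) and Tmem219 (0.996). All share the same 6 libraries, and with 3 arrays per genotype such values mostly follow the difference between the genotypes. Ankrd45, for example, read 62.3, 45.3 and 54.5 in WT and 27.4, 27.0 and 30.3 in KO, with WT replicate 1 highest and WT replicate 2 lowest, as in Prss21, Prss39, Prss40, Prss46 and Prss50. The genes were picked for such likeness, so this order is no separate result.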

How the data were processed

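Expression was measured in 3 Nxf2 KO and 3 WT testis samples of 21 days, 1 array each. Per the labels' protocols, RNA was extracted with Trizol and amplified with biotinylated nucleotides. The authors deposited 1 signal intensity per probe set and array, made with MAS5 per the submitters' processing notes, which name no version. Array medians were 37.1 to 40.9. Detection calls were not used here, and 3 arrays per group limit the precision.

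Probe sets took names from the platform annotation (34945 with 1 symbol, 932 with several, 9160 unnamed), updated through Entrez identifiers, of which RefSeq held 34741. Signals became log2(signal + 7), 7 being the 25th percentile of all values. Probe sets with a mean at or above the 40th percentile of means (20.5) were tested, without the 64 control sets, with limma 3.58.1 in R 4.3.3 (lmFit, eBayes with trend, two-sided, Benjamini-Hochberg over 27022). The fit was tested on simulated data. A listed gene was represented by its brightest probe set. The members and lists were chosen with earlier results of these data known. Named genes were Nxf2, all members, up to 4 called members of lowest p per pathway list (otherwise the 2 of lowest p), the flanking genes and the 5 closest by correlation. The alternatives were quantile normalization, median centring, pseudocounts of 1 and 39, no dim filter or one at the 60th percentile, no trend, array weights, a replicate block, each array left out, and, for lists, averaging a gene's probe sets. Promoter sequences are from RefSeq, and windows were aligned globally with Biopython.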

Additional observations from a re-analysis of the deposited data

How the results depend on the processing

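The number of called probe sets was 2024 and ranged from 159 (without WT replicate 1) to 1534 (without KO replicate 1) when 1 array was left out. It was 1005 without the dim filter, 743 without the intensity trend and 7217 with array weights (3446 lower and 3771 higher). With the replicate number as a block it was 4503 (2330 lower and 2173 higher, against 1414 and 610), and 7 of the 10 protease probe sets were called in place of 5, Prss42 (adjusted p = 0.00349 by limma) and Prss50 being added. The flanking gene Tmie was called with the block too (0.0136 by limma). The Sertoli list had 8 calls with the block and 9 with array weights, the Leydig list 5 with either, and the macrophage list 5 and 3. The block was kept as an alternative, since whether the replicate numbers mark the pairs is not stated. Same-numbered arrays correlated at 0.079, 0.457 and 0.266 in their deviations from the group means. Each KO array correlated most with the WT array of its own number. With the other WT arrays KO replicate 1 gave -0.029 and -0.021, KO replicate 2 -0.238 and -0.334, and KO replicate 3 0.112 and -0.316. WT replicate 1, however, correlated more with KO replicate 3 (0.112) than with KO replicate 1. Left-out arrays gave 3 to 5 called protease probe sets, and the other settings 4 to 7. Prss54 was lost without the dim filter, without the trend and under the stricter filter, where it was not tested, and Prss42 and Prss50 were added by array weights. The median of the protease probe sets stayed between -0.58 and -0.47 over all 15 alternatives. Of the other named genes, the calls of Adam2, Adam3, Masp1, Pcsk5 and Serpina5 were lost without the dim filter. Without the trend these 5 were lost, as were those of Acr, Acrbp, Ccdc113, Pdilt, Zpbp and Zpbp2, and with median centring those of Adam2 and Serpina5. No member log2 fold change turned its sign in any alternative that tested it.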
